A study of Drosophila melanogaster with 6 samples.

Results

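Antisense RNAs are transcripts read from the strand opposite to another gene. The RNAs described here are the 65 genes of the deposited expression table whose FlyBase symbol carries the antisense prefix (asRNA) and whose mean level over all 6 libraries was at least 1 FPKM (fragments per kilobase, scaled to library size). They are 14% of the 465 antisense RNAs among the 17558 genes of the table. Of the other 400, 128 were at 0 in every library and 272 lay above 0 but under a mean of 1 FPKM. The mean level chose the members, so the levels below are a description. The rule did not use the difference between the groups, but 5 members, CR44340 among them, met it only through their higher group. A further 306 identifiers matched no current symbol, 204 of them with a mean of at least 1 FPKM, and any antisense RNA among these is not covered.

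The libraries came from adult male Drosophila melanogaster taken 12 h after injection of the bacterium Micrococcus luteus (M. luteus). The 3 control libraries were from flies of the genotype Gal80ts; Tub-Gal4/P{CaryP}attP40. The 3 overexpression libraries were from flies labelled Gal80ts; Tub> CR46018, in which the long non-coding RNA CR46018 was driven by the tubulin driver. Gal80ts is a heat-sensitive repressor of Gal4, carried by both groups, and the tubulin driver is active in most tissues. Every fly was infected, and no uninfected group was available for comparison. The labels do not say that libraries of a group came from separate sets of flies, and p-values therefore measure the spread between these libraries, which may be partly technical. The question in the study's title concerns Toll signalling, the fly's defence pathway against Gram-positive bacteria and fungi.

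An antisense RNA and the gene it overlaps, here called its partner, have complementary exon sequence and can pair into double-stranded RNA. In Drosophila such duplexes are cut by Dicer-2 (Dcr-2) and loaded into Argonaute 2 (AGO2) as endogenous small interfering RNAs, and antisense transcription can also change how the partner is transcribed or spliced. For most fly antisense RNAs no function is known. An exception is bsAS, the antisense RNA of blistered, which in the developing wing affects which blistered isoform is made.

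Multiplied by exonic length and divided by a scale for each library, the deposited values fell on whole reads within 0.01 reads. This held for 97.6% of the 15683 genes of known length above 0 in at least 1 library, and for all 65 members. The scale was fitted to these same values. Recovered reads came to between 15084193 and 17396893 per library. A member had between 2 and 1816 reads in a library, with a median of 35, and 11 members had under 10 reads in at least 1 library. Summed over the 6 libraries, the members had between 52 and 9571 reads. Within groups, their reads spread more than counting error alone would give, with a median chi-square per degree of freedom of 1.57 over 4 degrees of freedom and a highest value of 5.89, for CR44047.

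CR46018 is itself annotated as an antisense RNA, and it was not among the 65. It lies at 3R:12634192-12634744 on the minus strand (dm6), where 429 of its 553 exonic bases, 77.6%, are also exon of the plus-strand gene CG18530. No read was assigned to it in any control library, and the overexpression libraries had 3, 1 and 0 reads. These correspond to 0.264, 0.0902 and 0 FPKM, against a level of 0.0971 FPKM that 3 reads over the control group would give. The exact two-sided permutation test gave p = 0.4, where 3 against 3 libraries cannot go below 0.1. That test could not reach 0.05 whatever the values. Only 124 of its exonic bases are unshared, fewer than the 370 bp of the shortest selected cDNA fragments. Whether reads on the shared bases were counted is not stated. These few reads do not show whether CR46018 was overexpressed, and the cause of their low number was not tested. The overlapped gene CG18530 had 2.51 ± 0.573 FPKM in the controls and 3.50 ± 1.11 in the overexpression libraries (SD, n = 3), and the groups overlapped.

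The 65 antisense RNAs lay on every large chromosome arm. There were 7 on X of 68 antisense RNAs in the table, 8 of 86 on 2L, 14 of 93 on 2R, 15 of 103 on 3L and 16 of 105 on 3R. On the small chromosome 4, 5 of 10 were members, against 60 of 455 elsewhere. Exonic length ran from 334 to 5545 bases with a median of 802, against 892 for all 465, and 24 members have a single annotated exon.

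Their position relative to the partner fell into 4 arrangements. In 29 cases the RNA lies inside the span of the partner gene. In 22 the genes overlap at their 5′ ends, head to head, and in 6 at their 3′ ends, tail to tail. In 7 cases the reverse holds and the partner lies inside the span of the RNA. The remaining member, bsAS, shares no exonic base with any opposite-strand gene and runs through introns of blistered (bs), the fly serum response factor. All 64 main partners, defined by the longest shared exon sequence, are protein-coding, and 46 of the 65 RNAs overlap coding sequence. For 57 members a single gene shares exonic bases, and for 7 there are 2.

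How much of an antisense RNA overlaps exons of the other strand bears on how its FPKM value can be read. Among all genes of known length, 141 have every exonic base covered by exons of the opposite strand, and 135 of them were at 0 in all 6 libraries. The 6 exceptions had mean levels between 0.219 and 67.9 FPKM, the highest in MP1, a protease of the melanization cascade. When only opposite-strand genes with a row in the table are considered, 135 genes are covered throughout. Of these, 133 were at 0, and the 2 above 0 were MP1 and Lcp65Ag3. Counting that ignores strand and leaves out reads falling on more than 1 gene returns 0 for such genes, and which strand setting was used is not stated in the labels. The cause of the zeros was not tested. If strand was ignored, reads from a gene and from its antisense partner cannot be told apart in these values.

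Along the same scale the antisense RNAs formed a gradient. All 31 that are covered to 100% were at 0 in every library. Of the 172 covered above 75% but below 100%, 84 were at 0 and 1 (0.6%) reached a mean of 1 FPKM. The share reaching 1 FPKM was 14.7% of the 116 covered above 50% to 75%, 25.3% of the 91 above 25% to 50%, and 42.6% of the 54 above 0 to 25%. The members accordingly had a median of 34.8% of their exonic bases shared, with a highest value of 77.0%, against a median of 75.2% in the other 400. The level that chose the members thus went together with how much sequence each RNA has to itself.

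**Figure D1:**
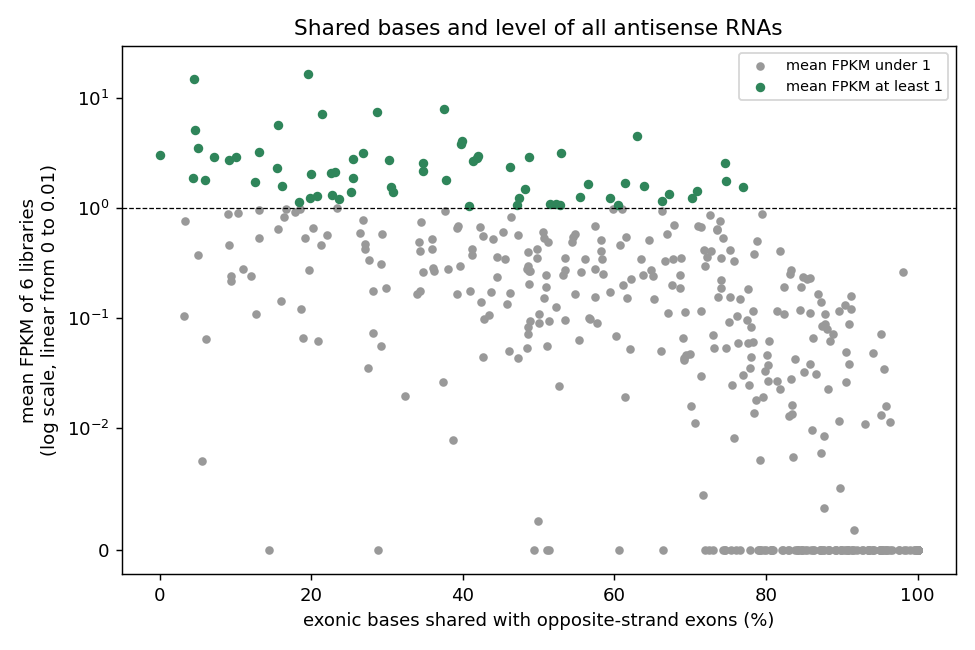
Each point is 1 of the 465 antisense RNAs. The x axis gives the percent of its exonic bases that are also exon on the opposite strand, the y axis its mean FPKM over the 6 libraries on a log scale that is linear from 0 to 0.01, and the dashed line marks 1 FPKM. Members (green) reach no further than 77.0% on the x axis, and all 31 RNAs at 100% are at 0.

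In 52 members some of the unshared bases lie in introns of an opposite-strand gene, and in 30 of these members all do. Reads there from the antisense RNA and from unspliced partner RNA cannot be told apart without strand. In 21 members the unshared bases number under 370, the lower end of the selected cDNA fragments of 370 to 420 bp, with a minimum of 159. FPKM divides by the whole exonic length. Per kilobase of unshared sequence the members' mean levels ran from 1.38 to 20.6.

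Most members were low. A mean of 5 FPKM or more was reached by 7, a mean from 2 to 5 by 25, and a mean from 1 to 2 by 33. The most abundant was CR43152 (X:12973825-12974615, minus strand), which meets CG15721 tail to tail. Its controls had 14.7, 14.2 and 16.3 FPKM and its overexpression libraries 17.8, 16.7 and 19.9. Every overexpression library lay above every control, and the difference of 0.25 ± 0.08 (SE) on the log2(FPKM + 1) scale missed the threshold (limma adjusted p = 0.104). CG15721 itself had at most 5 reads in a library and a mean of 0.0423 FPKM, so this RNA was counted far above its partner.

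CR44370 (2R:15226938-15232665, plus strand), with 6 exons and 5545 exonic bases the longest member, lies inside Follistatin (Fs), which encodes a secreted antagonist of activin-type ligands. Only 4.49% of it is shared, all 249 bases of it Fs coding sequence. The other 5296 bases all lie inside the span of Fs, where reads from unspliced Fs RNA cannot be told apart without strand. It was second in level at a mean of 14.9 FPKM, while Fs had 1.20. Its libraries are given with the differences below.

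CR44027 (4:395396-395954, plus strand) overlaps the 5′ end of datilógrafo (dati), a zinc finger transcription factor gene. Its levels were 8.18, 6.73 and 7.05 FPKM in the controls and 7.83, 8.66 and 9.56 in the overexpression libraries, and the groups overlapped (0.22 ± 0.09, limma adjusted p = 0.212). The partner dati had 1.88 ± 0.147 and 1.94 ± 0.128 FPKM (SD, n = 3).

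CR43637 (X:2200623-2201857, minus strand) lies inside Mct1, a monocarboxylate transporter gene. The controls had 7.77, 6.27 and 8.79 FPKM and the overexpression libraries 7.22, 7.15 and 7.98, with the latter inside the range of the former (-0.02 ± 0.11, limma adjusted p = 0.948). Mct1 had 17.1, 15.2 and 13.5 FPKM in the controls and 12.7, 12.3 and 10.3 in the overexpression libraries. The Mct1 groups did not overlap, and the difference of -0.35 ± 0.10 missed the threshold (limma adjusted p = 0.0778).

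CR43160 (2R:20896994-20898629, plus strand) lies inside orthopedia (otp), a homeobox gene of the nervous system and hindgut. Control levels were 6.47, 6.01 and 6.72 FPKM and overexpression levels 7.54, 7.91 and 8.80. All overexpression libraries were above all controls (0.29 ± 0.08, limma adjusted p = 0.0567). The homeobox gene otp was lower in level, at 1.10 ± 0.161 and 1.20 ± 0.0950 FPKM (SD, n = 3), with overlapping groups.

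CR44358 (X:11079291-11079772, plus strand) is a single exon inside sevenless (sev), the receptor tyrosine kinase that specifies the R7 photoreceptor. It had 5.18, 5.10 and 5.33 FPKM in the controls and 5.95, 5.90 and 6.74 in the overexpression libraries. The groups did not overlap and the difference missed the threshold (0.21 ± 0.08, limma adjusted p = 0.132). For sev the values were 11.3 ± 0.506 and 12.6 ± 0.431 FPKM (SD, n = 3), also without overlap (0.15 ± 0.06, limma adjusted p = 0.202).

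CR45813 (3L:1549448-1549900, minus strand) sits inside Pcyt1, the gene of a rate-limiting enzyme of phosphatidylcholine synthesis, and had 4.48, 6.69 and 4.41 against 4.18, 5.95 and 5.21 FPKM. Its partner stood at 79.2 ± 5.35 and 85.9 ± 7.74 FPKM (SD, n = 3). CR45192 (3R:5835478-5836178, minus strand), inside CG1208, had 5.05, 3.54 and 3.52 against 3.97, 5.54 and 2.91 FPKM. In neither RNA were the groups apart.

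CR44030 (4:959675-962692, plus strand) meets fussel (fuss), a gene of the Ski and Sno family of transcriptional co-regulators, tail to tail. It had 3.87, 4.51 and 4.17 FPKM in the controls and 4.0, 2.98 and 3.34 in the overexpression libraries, and the groups overlapped (-0.23 ± 0.11, limma adjusted p = 0.248). The partner fuss had 1.26 ± 0.123 and 1.41 ± 0.0948 FPKM (SD, n = 3).

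**Figure D2:**
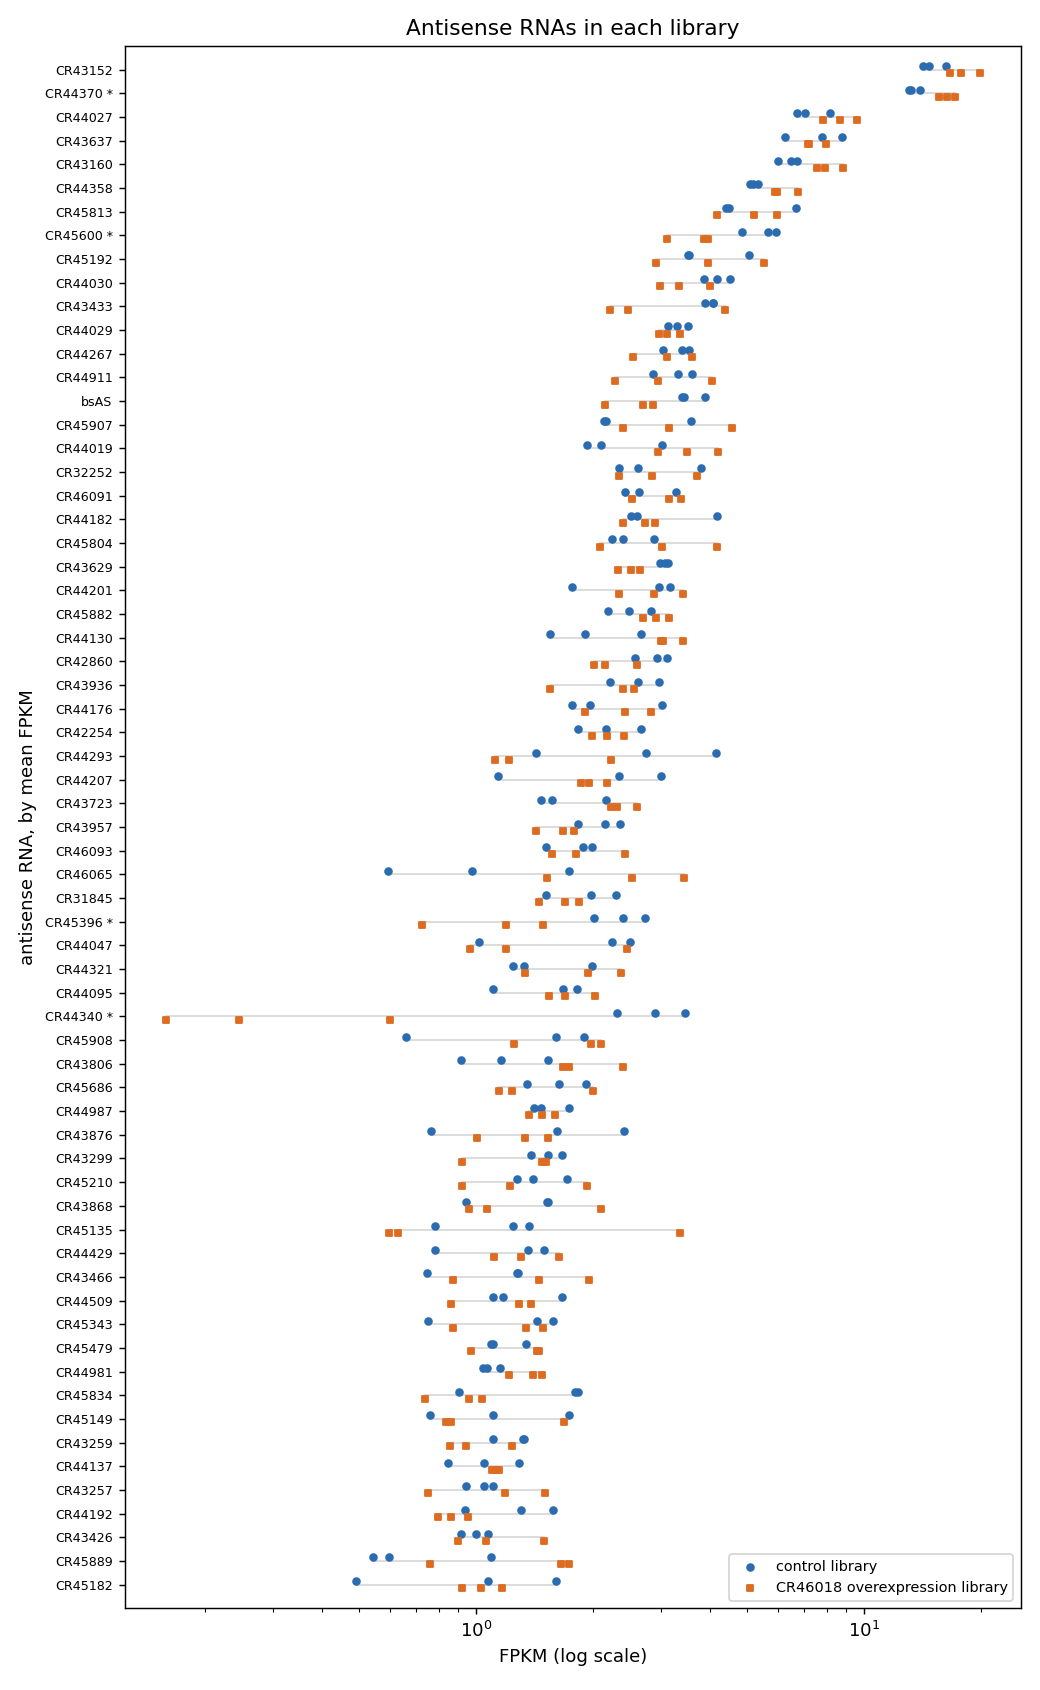
FPKM of the 65 antisense RNAs (rows, ordered by mean) in each library on a log axis, with 1 blue circle for each of the 3 control libraries and 1 orange square for each of the 3 overexpression libraries. Asterisks mark the 4 members past the threshold, of which CR44340 has its overexpression libraries furthest to the left of its controls.

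Most partners with a row in the table had the higher FPKM of the pair, and 18 of 60 antisense RNAs lay above their main partner. Of the 64 main partners, 60 have a row in the table under their current identifier, and Glo1, Pdi, lola and l(3)80Fg do not. At 0 in all libraries were 6 partners, CG3984, CG34211, Cys, CG8119, Peritrophin-15b and ETH, and each has at least 90.5% of its own exonic bases covered by opposite exons, 4 of them all. These are 6 of the 7 partners that lie inside the span of their antisense RNA, so their 0 cannot be read as absence of the messenger RNA. Another 6 partners were above 0 but under 1 FPKM.

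Keeping only the 48 partners at 1 FPKM or more, which leaves out the low ones, the partners had a median of 5.12 times the level of their antisense RNA, or 3.78 times per kilobase of unshared sequence. The ratio ran from 0.0808, for Fs over CR44370, to 375.2, for the aldolase gene Ald1 over CR44321. In 6 of these 48 pairs the antisense RNA had the higher FPKM, and in 9 per kilobase of unshared sequence. By arrangement, the medians cover all members and all partners with a value, also those under 1 FPKM, and not only these 48 pairs. The RNAs inside a partner's span had a median mean of 2.08 FPKM beside 26 partners at 12.6. Head to head RNAs stood at 1.87 beside 21 partners at 9.59, 3 of these under 1 FPKM. Tail to tail RNAs stood at 2.76 beside 6 partners at 1.26, 2 of these under 1 FPKM.

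Between the groups few antisense RNAs differed. In the fit across all 12251 genes with a mean of at least 1 FPKM, 1 antisense RNA rose, CR44370, and 3 fell, CR44340, CR45396 and CR45600 (limma on log2(FPKM + 1), adjusted p under 0.05). These 4 are 6.15% of the 65, beside 8.76% of all genes tested, 2.45% of which rose and 6.31% of which fell. At an unadjusted p under 0.05 there were 15 members, beside 23.5% of all genes. The groups did not overlap in 14 members, 8 higher and 6 lower, which is 21.5% beside 28.4% of all genes. None of these shares of the members stood above the background. Of the 689 tested genes with the lncRNA prefix, 20 rose and 26 fell, 6.68%. The count of members depended on single libraries: it was 1 without control replicate 1, 3 without overexpression replicate 1 and 2 without any other library, with CR44340 in each. Over all genes, 300 rose and 773 fell as deposited, 28% higher, against 826 and 484, 63.1% higher, once every library was brought to the same FPKM total, a scale on which 4 members rose and 2 fell.

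The sizes of the differences were centred on 0. There were 33 positive and 32 negative differences with a median of 0.01 on the log2(FPKM + 1) scale, beside a median of -0.0024 over all genes. A total of 61 members stayed within 0.5 in either direction, and the whole range was -1.54 to 0.73. The members also had larger standard errors, a median of 0.15 against 0.08 over all genes. In 5 members the mean of a group was under 1 FPKM, in the controls for 2 and in the overexpression libraries for 3, and such a member passed the level of 1 FPKM only through its higher group. CR44340 is among these 5.

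The largest difference was at CR44340, a single-exon RNA of 613 bases at X:19495284-19495896 on the minus strand. The control libraries had 2.88, 2.30 and 3.45 FPKM, from 34, 27 and 37 reads. The overexpression libraries had 0.159, 0.244 and 0.598 FPKM, from 2, 3 and 7 reads. Every overexpression library was far below every control. The difference was -1.54 ± 0.17 on the log2(FPKM + 1) scale (limma adjusted p = 0.00187), and that scale understates the change of so low a gene. The call held under all 13 alternatives of processing and left-out libraries, with adjusted p between 0.000633 and 0.00907 and differences between -3.12 and -0.56.

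CR44340 overlaps the first exon of 2 plus-strand genes, CG14200 and Pfrx, which both start at X:19495505 and share sequence on their own strand. Of its exonic bases 392, or 63.9%, are shared, none of them coding, and the other 221 lie upstream of both genes and outside any opposite-strand gene. Pfrx encodes the enzyme that makes and degrades fructose 2,6-bisphosphate, a regulator of glycolysis. It had 29.5, 33.2 and 31.9 FPKM in the controls and 24.5, 22.6 and 23.4 in the overexpression libraries. All overexpression libraries were lower, and Pfrx fell by 0.41 ± 0.06 (limma adjusted p = 0.00722), a call that held under all 14 alternatives. CG14200, the main partner by shared bases, had 8.80, 9.63 and 8.71 FPKM in the controls and 9.39, 10.1 and 9.97 in the overexpression libraries, which overlapped (0.11 ± 0.07, limma adjusted p = 0.379). Reads on exon sequence that CG14200 and Pfrx have in common could be assigned to neither with certainty.

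The antisense RNA moved further than either partner. The difference within the pair, CR44340 minus partner in each library, went from a mean of -1.38 in the controls to -3.04 in the overexpression libraries for CG14200, a change of -1.65 ± 0.16 (limma over pairs, adjusted p = 0.000874). For Pfrx the change was -1.14 ± 0.17 (limma over pairs, adjusted p = 0.00496). The second was lost with a pseudocount of 5 (adjusted p = 0.211, the highest of its alternatives, which began at 0.00161).

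CR45600 (3R:15136985-15140121, minus strand, 3 exons) contains the whole of CG3984, whose 1731 exonic bases all lie in the RNA's exons and which was at 0 in every library. It has 1079 unshared bases, and at its 5′ end it shares another 104 bases with CG3987. The controls had 5.64, 5.94 and 4.84 FPKM and the overexpression libraries 3.97, 3.10 and 3.87. The groups did not overlap, and CR45600 fell by 0.48 ± 0.11 (limma adjusted p = 0.0310). The call was lost in 6 of 13 alternatives, among them without control replicate 1 (adjusted p = 0.0957) or 2 (0.102) and without overexpression replicate 2 (0.0733) or 3 (0.0706), over a range of 0.00555 to 0.102. CG3987, named after its values were seen, had 26.4, 35.6 and 22.2 FPKM in the controls and 19.3, 19.9 and 21.0 in the overexpression libraries, all lower. Its difference of -0.44 ± 0.15 was close in size to that of the RNA and missed the threshold (limma adjusted p = 0.110, 0.0312 to 0.217 over 14 alternatives), passing it with voom and without control replicate 3. The difference within the pair changed by -0.04 ± 0.14 (limma over pairs, adjusted p = 0.911).

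CR45396 (3L:15142131-15142800, plus strand) is a single exon inside Pdi, the protein disulfide isomerase gene of the endoplasmic reticulum, with 74.8% of its bases shared and 169 unshared, all inside the span of an opposite-strand gene. It had 2.02, 2.73 and 2.39 FPKM in the controls and 0.725, 1.19 and 1.49 in the overexpression libraries, from 10 to 35 reads. All overexpression libraries were lower, and CR45396 fell by 0.67 ± 0.16 (limma adjusted p = 0.0392). Of 13 alternatives 7 lost the call, with adjusted p up to 0.125 and down to 0.0337 over all. Leaving out control replicate 1, 2 or 3 gave 0.0618, 0.125 and 0.0885, and leaving out overexpression replicate 1 or 2 gave 0.0777 and 0.0801. The call was also lost with no filter and with the same FPKM total in every library. Pdi has no row under its current identifier, so its level is not given.

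CR44370, whose unshared bases all lie inside the span of Fs, was the antisense RNA that rose. Its controls had 13.2, 13.9 and 13.1 FPKM, from 1270 to 1480 reads, and its overexpression libraries 15.6, 16.3 and 17.2, from 1779 to 1816 reads. The groups stood apart by a small step of 0.27 ± 0.06 (limma adjusted p = 0.0331). Without control replicate 1, 2 or 3 the adjusted p was 0.106, 0.0610 and 0.0828, and without overexpression replicate 2 or 3 it was 0.0795 and 0.126. Over 14 alternatives it ran from 0.00535 to 0.126 and the call was lost in 6. Fs had 1.69, 1.35 and 1.07 FPKM in the controls and 0.942, 0.925 and 1.24 in the overexpression libraries, with overlapping groups (-0.22 ± 0.14, limma adjusted p = 0.417).

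**Figure D3:**
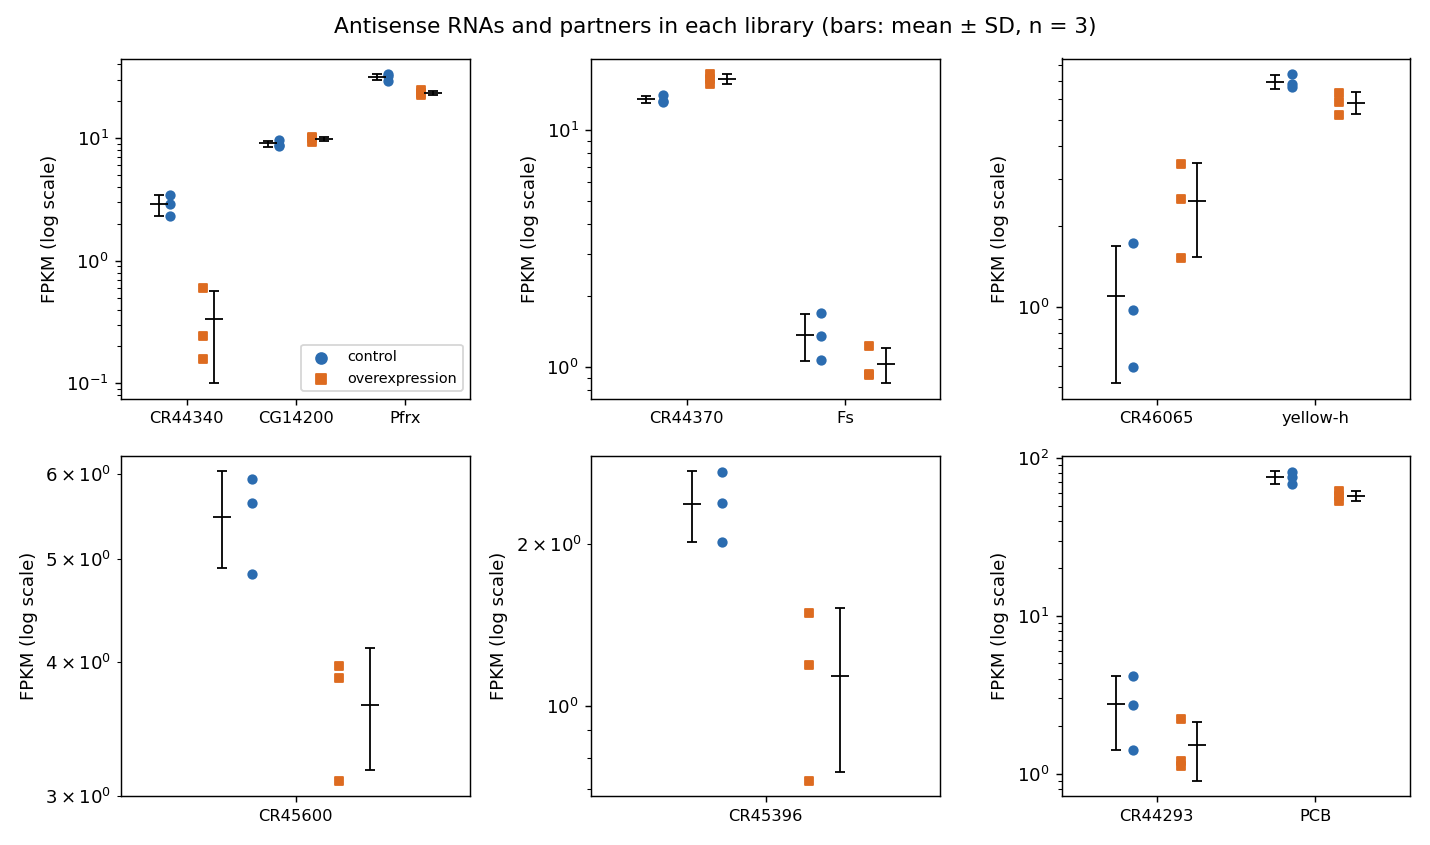
FPKM in each library (log scale) of antisense RNAs and their partners, with control libraries as blue circles, overexpression libraries as orange squares and bars giving the mean ± SD of 3 libraries. CR44340 drops from 2.88 ± 0.572 to 0.334 ± 0.233 FPKM while CG14200 stays near 9 to 10 FPKM, and the groups of CR45600, CR45396 and CR44370 lie apart by smaller steps.

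Beyond these 4, another 10 members had groups that did not overlap without passing the threshold. Those above their controls were CR43152, CR43160, CR44358, CR44130, CR43723, CR43806 and CR44981, and those below were bsAS, CR43629 and CR43957. Among them bsAS (2R:24351477-24369689, minus strand) is singled out, after its values were seen, as the member with a described role and with all 1231 exonic bases unshared. It had 3.88, 3.40 and 3.43 FPKM in the controls and 2.69, 2.15 and 2.85 in the overexpression libraries (-0.36 ± 0.11, limma adjusted p = 0.0790). Its exonic bases all lie inside the span of blistered. CR44130 (2R:6047170-6047738, minus strand) had 1.55, 2.66 and 1.91 FPKM in the controls and 2.99, 3.42 and 3.04 in the overexpression libraries (0.46 ± 0.14, limma adjusted p = 0.0877). Over 14 alternatives, CR43160 passed the threshold in 2 (lowest limma adjusted p = 0.0273). CR43152 and CR44358 passed in 1 each (0.0399 and 0.0458).

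Among the 48 tested partners none rose and 1 fell in limma, 2.08% beside 8.76% of all genes, and 3 changed with voom, which called 12.0% of all genes it tested. An unadjusted p under 0.05 was reached by 6 of the 48, beside 23.5% of all genes. Their groups did not overlap in 15 cases, 4 higher and 11 lower, or 31.2% beside 28.4%. Over all genes without overlap, 1499 were higher and 1980 lower. The partner that fell was PCB, the gene of pyruvate carboxylase, which makes oxaloacetate from pyruvate. PCB had 82.0, 75.9 and 68.6 FPKM in the controls and 61.5, 57.5 and 53.2 in the overexpression libraries. It fell by 0.39 ± 0.08 (limma adjusted p = 0.0235), and the call was lost without control replicate 1 (0.0697) or 2 (0.0735) and without overexpression replicate 2 (0.0593) or 3 (0.0829), over a range of 0.00266 to 0.0829 in 14 alternatives. Its antisense RNA CR44293 (2R:9861145-9861545, plus strand), which overlaps it head to head, had 4.15, 2.74 and 1.42 against 1.21, 1.12 and 2.22 FPKM, with overlapping groups (-0.54 ± 0.28, limma adjusted p = 0.289).

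Across pairs, antisense RNAs and partners went in the same direction about as often as not. In the 48 pairs where the main partner was tested, the differences had the same sign in 23 and opposite signs in 25. With second partners included, the signs were the same in 27 and opposite in 26 of 53 pairs. The added pairs include CR45600 with CG3987 and CR44340 with Pfrx, in which the RNA and the second partner were lower together. Pearson's r was -0.05 and Spearman's rho 0.02 across the 48 pairs, and 0.07 and 0.06 across 47 pairs without CR44340. These describe pairs measured in the same 6 libraries and are not tests over replicates.

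The difference within each pair was also tested, over all 1387 opposite-strand pairs with overlapping exons and a mean of at least 1 FPKM in both genes. Of these, 83 pairs changed, or 5.98%. Of the 53 pairs that hold a member, which cover 50 members, 4 changed, and 2 of the 4 are the CR44340 pairs given above. The third was CR44370 minus Fs, at 0.48 ± 0.11 (limma over pairs, adjusted p = 0.0372), lost in 8 of 13 alternatives with adjusted p from 0.0235 to 0.117. It was lost without control replicate 1 (0.115) or 2 (0.0869) and without overexpression replicate 1 (0.0993), 2 (0.117) or 3 (0.0785).

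The fourth was CR46065 (4:228576-229112, minus strand) minus yellow-h, a gene of the yellow family of secreted proteins, whose span holds the RNA. CR46065 had 0.973, 1.74 and 0.593 FPKM in the controls and 2.53, 3.42 and 1.53 in the overexpression libraries, from 5 to 33 reads, and its groups overlapped (0.73 ± 0.25, limma adjusted p = 0.122). The partner yellow-h had 6.67, 7.43 and 6.79 FPKM in the controls and 6.33, 5.24 and 5.85 in the overexpression libraries, all lower (-0.23 ± 0.08, limma adjusted p = 0.145). Their difference changed by 0.96 ± 0.24 (limma over pairs, adjusted p = 0.0478), lost in 10 of 13 alternatives with adjusted p from 0.00388 to 0.123. Only leaving out overexpression replicate 3 among the single libraries kept it (0.0268), while the lowest value without another library was 0.0585.

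**Figure D4:**
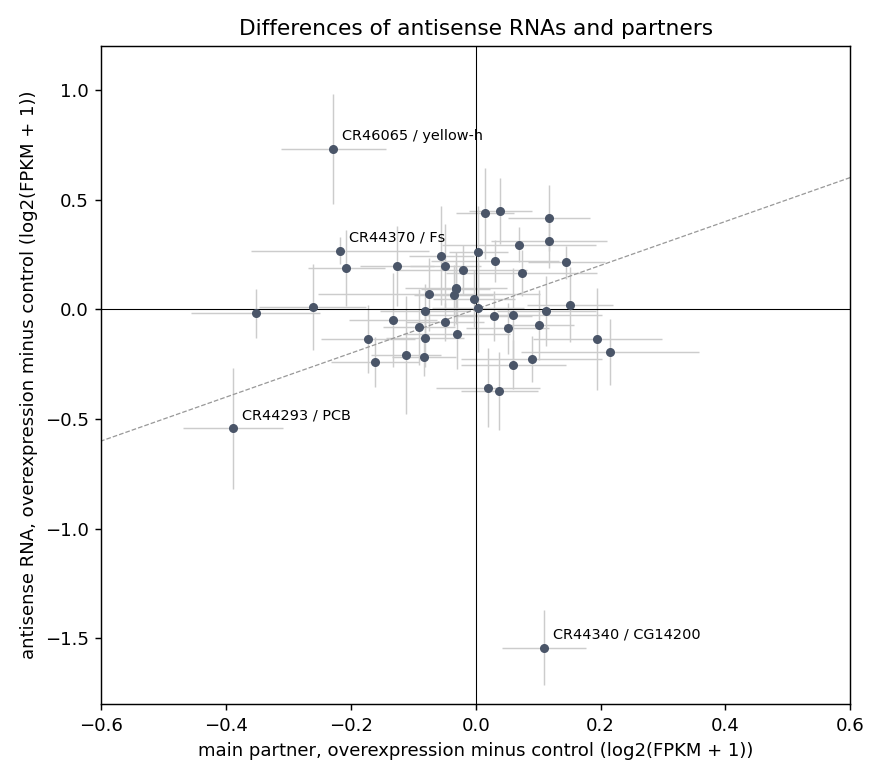
Overexpression minus control on the log2(FPKM + 1) scale for 48 antisense RNAs (y axis) against their main partners (x axis), with grey bars of 1 SE and a dashed line of equal differences. Points gather around 0 on both axes, and CR44340 at -1.54 beside CG14200 at 0.11 is the point furthest from the line.

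The genes that act on double-stranded RNA were measured beside the antisense RNAs. Of 15 listed double-stranded RNA and small RNA genes, 14 were in the table and tested, and 0 passed the threshold in limma or with voom on the recovered reads, and 0 had an unadjusted p under 0.05. Their median difference was -0.02. Dcr-2 had 9.69 ± 0.168 FPKM in the controls and 8.97 ± 0.562 in the overexpression libraries, and AGO2 had 49.6 ± 2.25 and 50.9 ± 1.37 (SD, n = 3), with overlapping groups for each. Of 12 genes of the nuclear RNA exosome, which degrades many non-coding transcripts, 0 passed in limma and 1 with voom, 3 had an unadjusted p under 0.05, and the median difference was 0.03. The groups did not overlap in 5 of the 12, 4 higher and 1 lower, or 41.7% beside 28.4% of all genes. Their summed levels were 111.7 to 119.6 FPKM in the controls and 120.9 to 127.0 in the overexpression libraries. The exosome gene Rrp6 had 28.1 ± 0.393 and 32.2 ± 2.24 FPKM (SD, n = 3; 0.19 ± 0.06, limma adjusted p = 0.109).

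Markers of several cell types moved between the groups, and in bulk RNA fewer cells of a type and less RNA per cell cannot be told apart. The 3 tested fat body markers apolpp, AkhR and bmm fell, and the 5 listed markers in the table summed to between 134.5 and 176.6 FPKM in the controls and between 51.3 and 74.5 in the overexpression libraries. Muscle markers fell in 2 of 5 tested (Mhc and Act88F), with sums of 685.4 to 914.5 and 606.7 to 634.2 FPKM. All 5 were lower without overlap and had an unadjusted p under 0.05 in limma, and voom called 4. Hemocyte markers fell in 1 of 4 (NimC1), while all 4 differences were negative, 3 had an unadjusted p under 0.05 and voom called 3. Of 6 gut markers betaTry rose, and the other differences were positive for 2 and negative for 3. Among the 6, 3 had an unadjusted p under 0.05 in limma, 3 were higher without overlap and voom called 3. Gut sums were 5297.4 to 6071.7 FPKM in the controls and 6779.6 to 7005.5 in the overexpression libraries. Of 5 Malpighian tubule markers Uro rose and NtR fell, with sums of 99.5 to 108.2 and 128.6 to 134.3 FPKM. No testis, accessory gland, nervous system or eye marker passed the threshold in limma. In that order, 2 of 9, 1 of 6, 0 of 5 and 3 of 6 had an unadjusted p under 0.05, and voom called 1, 0, 0 and 2. No listed marker in the table was at 0 in all libraries. The part of these markers in the antisense RNA differences was not tested.

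At the edge of the rule, the lowest members were CR45182, with a mean of 1.05 FPKM over the 6 libraries, and CR45889, with 1.06. Just outside it stood CR44592 at 0.998 and CR46033 at 0.982. In these 4 RNAs the control and overexpression libraries overlapped.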

How the data were processed

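Polyadenylated RNA was sequenced in paired ends, aligned with HISAT2 2.0.5, counted per gene with featureCounts 1.5.0-p3 and tested with DESeq2 by the authors, per the labels' protocols, on the build dm6, per the submitters' processing notes. The authors deposited 1 table of FPKM values, 1 column per library. Not given in the sources used here are the annotation release, the strand setting, the handling of reads on several genes and the FPKM formula.

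Of 17558 identifiers, 17252 were matched to symbols, exons and lengths in the Ensembl annotation of the same assembly. Whole reads were recovered by multiplying FPKM by exonic length and dividing by a scale for each library, fitted to the same values. Replicates of a group differed by a chi-square per degree of freedom of 6.57 to 9.74 over genes with at least 50 mean reads, so no library was a copy of another. A partner is an opposite-strand gene whose exon overlaps an exon of the antisense RNA by at least 1 base, and the main partner has the longest overlap.

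Two-sided moderated tests of log2(FPKM + 1) were run in limma 3.58.1 (R 4.3.3; lmFit, then eBayes with trend) over the 12251 genes whose mean was at least 1 FPKM, and p-values were adjusted over all of them by Benjamini-Hochberg, with a threshold of 0.05. The difference within opposite-strand pairs was tested the same way over 1387 pairs. In the text a value followed by ± in a difference is the SE. Named are CR46018 and its overlapped gene, the 10 members with the highest mean, every member or pair past the threshold, their main partners, and 2 members on each side of the level of 1 FPKM; others were named after their values were seen. The members and the gene lists were chosen with earlier results of these data known.

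The test was run on simulated data with the means of the real genes. It recovered 97.4%, 83.3%, 76.9%, 91.9% and 100% of genes changed by folds of 0.25, 0.5, 1.5, 2 and 4 among 11799 genes, and called 0.069% of 11609 unchanged genes. Each recovery rate rests on 36 to 40 genes drawn over nearly the whole range of levels, with a spread typical of their level. The members had larger standard errors, a median of 0.15 against 0.08 over all genes, so these are not rates for the members. Tried as alternatives were leaving out the filter or raising it to a mean of 5 FPKM, a pseudocount of 0.1 or 5, the same FPKM total in every library, quantile normalization, limma voom on recovered reads, a replicate block, partners by whole spans, and leaving out each library. The labels name no batch. No sequence is printed.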

Additional observations from a re-analysis of the deposited data

How the results depend on the processing

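The direction and the call of CR44340 held under all 13 alternatives. The count of 4 antisense RNAs past the threshold became 2 with no filter, 2 with a mean FPKM of at least 5 (of 7 tested) and 1 to 3 with a library left out. Of the 4, only CR44370 has a mean of at least 5 FPKM, so at least 1 of the 2 calls at that filter is another member. The count of 4 changed pairs became 2 with a pseudocount of 0.1, 2 with no filter and 2 to 4 with a library left out. It was 0 with a mean FPKM of at least 5, where the 3 pairs tested include none of the 4. The 1 changed partner became 2 with partners by whole spans (PCB and Pfrx), 2 on the common FPKM total (PCB and sev), 3 with voom (Ald1, Mct1 and PCB) and 0 to 1 with a library left out. Over all genes the count of 1073 ran from 563 to 914 with a library left out, lowest without overexpression replicate 3, 598 without control replicate 2 and 622 without control replicate 1. The cause of these shifts was not tested, except that fewer libraries or genes were tested by construction.

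With the replicate number as a block, 3 members passed (CR44340, CR45396 and CR46065), 3 pairs, 2 partners (Mct1 and PCB) and 835 genes. Same-numbered libraries did not deviate together (correlations of 0.0456, -0.0761 and 0.0264), so the numbers were not taken to pair the samples.

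Differences near 0 changed sign, and the cause was not tested. CR43637 (-0.02) gave 0.066 on the common FPKM total and, with a library left out, ran from -0.13 to 0.080. CR45813 (-0.01) gave 0.071 on the common total, 0.0026 under quantile normalization, and -0.11 to 0.16 with a library left out. With a library left out, CR45192 (0.01) ran from -0.18 to 0.19 and dati (0.03) from -0.0032 to 0.071. In 11 members a library had under 10 reads, and in 23 the spread within groups was over 2 times counting error (chi-square per degree of freedom).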
